A study of Mus musculus with 59 samples.

Results

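The brown adipose tissue (BAT) of CTRL mice fed a high-fat diet (HFD) was compared with that of CTRL mice fed chow (Chow). The count table of the diet experiment holds 13 mice, and the comparison takes the 4 CTRL mice with the numbers 7, 9, 10 and 11 on HFD and the 4 CTRL mice with the numbers 1, 2, 3 and 4 on Chow, 8 of the 59 samples of the series. All were male C57BL/6J mice of 8 to 12 weeks, with the genotype CTRL in both groups, and their diet experiment carries the label 3.5d, read here as 3.5 days of diet. The other 5 mice of the table, 3 on HFD and 2 on Chow, carry the genotype BATKO, and CTRL is named as their control. The genetic change behind BATKO, any allele that CTRL mice carry, the composition of both diets and the housing temperature are not given in the sources used here. Each library is labelled with a mouse number of its own, but no label states how the animals were kept or pooled, so the p-values measure the spread between these libraries.

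Brown fat is a tissue that burns fuel to make heat. Its cells take up glucose and fatty acids, store them as small triglyceride droplets and oxidise them in mitochondria that the proton carrier UCP1 uncouples from ATP synthesis. They also build fatty acids from citrate (de novo lipogenesis), through ATP citrate lyase, acetyl-CoA carboxylase and fatty acid synthase, whose genes are known targets of the transcription factors SREBP1c and ChREBP. Dietary fat is known to lower this synthesis in liver and fat, and overfeeding is known to raise sympathetic drive to brown fat in rodents.

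The 4 HFD libraries held 7683426 to 8345253 counted reads and the 4 Chow libraries 8574507 to 9559349, so the totals of both groups did not overlap (exact permutation test, two-sided, p = 0.0286, the smallest p that 4 against 4 mice allow). Genes of the mitochondrial genome took 46.1% ± 2.58 of the counts on HFD and 47.3% ± 2.78 on Chow (SD, n = 4 each; exact permutation test, two-sided, p = 0.543). The tissue label was met by its markers, since all 10 brown adipocyte markers had counts and Ucp1, Cidea and Cox8b were among the abundant transcripts. Skeletal muscle transcripts entered some libraries. The 12 muscle markers together made up 5.04, 625, 96.1 and 6.54 CPM, the counts scaled to a common library total, in HFD mice 7, 9, 10 and 11, and 12.1, 136, 2519.7 and 1569 CPM in Chow mice 1, 2, 3 and 4. Chow mice 3 and 4 were the highest, and 0 of the 12 muscle genes passed edgeR's or DESeq2's test, with a median log2 difference of -2.59. In edgeR 4 of them had an unadjusted p under 0.05, as did 21.7% of all genes, and 10 were called lower when no filter on the mean count was set, a setting in which 1280 genes were called in all. The part of muscle RNA in each value was not measured, but the diet comparison of each gene was repeated with the muscle level as a covariate.

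Across the 12916 genes tested, 509 differed between HFD and Chow (3.94%), 245 of them higher (1.9%) and 264 lower (2.04%) on HFD, in edgeR's quasi-likelihood test at a Benjamini-Hochberg adjusted p under 0.05. Most of the differences were moderate. The median log2 fold change was 0.84 among the genes that rose and -0.77 among those that fell, and 87 rose and 85 fell by a factor of 2 or more. In 229 of the genes that rose and 256 of those that fell no HFD mouse overlapped with any Chow mouse, against 5.16% and 5.59% of all genes tested that were separated in those directions. The number of calls depended on single mice. It was 166 without Chow mouse 2, 228 without Chow mouse 4, 243 without HFD mouse 11, 257 without HFD mouse 10 and 321 when only the 8 CTRL mice were fitted, while 701 genes passed with the muscle level as a covariate.

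Genes with neighbours on the other strand carry an added doubt, since the strand setting of the counting is not given in the sources used here. Of the genes named below, Akr1cl, Hmgcs1, Bmp8b, Bcat2, Gmpr, Fdft1, Aldh6a1, Fabp3 and Adrb3 have 11.7% to 24.9% of their exon length under a gene of the opposite strand.

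**Figure D1:**
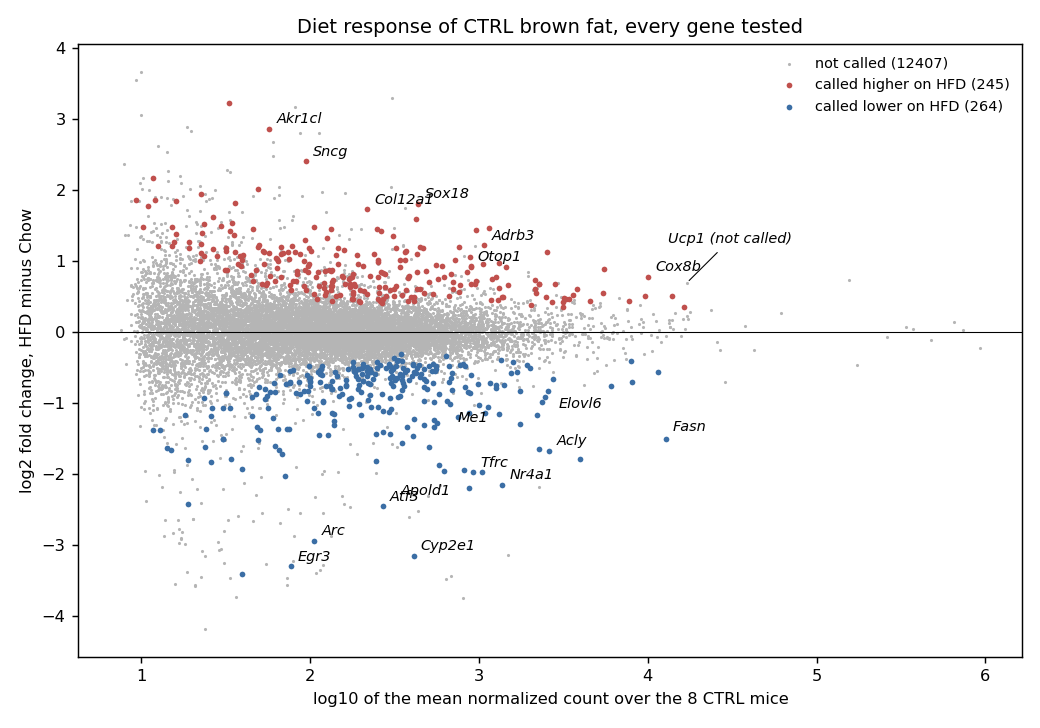
Log2 fold change (HFD minus Chow, y axis) of each of the 12916 genes tested against the log10 of its mean normalized count over the 8 CTRL mice (x axis). The 245 genes called higher (red) and the 264 called lower (blue) lie at all expression levels; Acly and Fasn are among the abundant genes that fell, and Ucp1 was not called.

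A group of genes of de novo lipogenesis was lower on HFD. Of 21 members tested, 7 were lower on HFD and 0 higher, against 2.04% and 1.9% of all genes, with a list median of -0.26 beside 0.01 for all genes. Acly, which encodes ATP citrate lyase, the enzyme that turns cytosolic citrate into acetyl-CoA, had 1589, 1343, 1025 and 1026 normalized counts in HFD mice 7, 9, 10 and 11 and 3993, 5176, 4115 and 2542 in Chow mice 1, 2, 3 and 4 (the order used throughout). Every HFD mouse was below every Chow mouse (log2 fold change -1.67, SE 0.22, adjusted p = 0.00125). Fasn, encoding fatty acid synthase, had 8751, 7699, 4308 and 5911 on HFD and 18921, 22132, 21678 and 12512 on Chow (log2 fold change -1.50, SE 0.25, adjusted p = 0.00589). The ranges were again separate, and the means of Acly and Fasn on Chow were 3.18 and 2.82 times those on HFD. Me1, the malic enzyme that supplies NADPH, had 513, 577, 329 and 365 on HFD and 915, 805, 1201 and 682 on Chow (log2 fold change -1.02, SE 0.19, adjusted p = 0.0108). Elovl6, the elongase that acts on the palmitate made by fatty acid synthase, had 1726, 1931, 1660.2 and 1478 on HFD and 3182, 4006, 2936 and 2658 on Chow (log2 fold change -0.91, SE 0.13, adjusted p = 0.00225). All 4 of these genes were separated between the diets in all 8 mice.

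The other 3 lipogenic genes that fell, named after their values were seen, were Acaca, Slc25a1 and Thrsp. Acaca, the cytosolic acetyl-CoA carboxylase that makes malonyl-CoA, had 241, 259.7, 126 and 149 on HFD and 488, 471, 416 and 268 on Chow (log2 fold change -1.08, SE 0.24, adjusted p = 0.0237), so that the highest HFD mouse and the lowest Chow mouse were close. Slc25a1, the mitochondrial citrate carrier that feeds Acly, had a log2 fold change of -0.61 (adjusted p = 0.047) and Thrsp, the lipogenic protein Spot 14, one of -0.56 (adjusted p = 0.0384). The list did not move as one. Srebf1, the gene of SREBP1, had 504.1, 344, 406 and 607 on HFD and 607, 474, 710.2 and 441 on Chow, with overlapping ranges (adjusted p = 0.459). Scd1, the stearoyl-CoA desaturase that makes monounsaturated fatty acids and by far the most abundant member, had 206884, 229294, 141906 and 196116 on HFD and 73248, 146085, 143736 and 101005 on Chow, a log2 difference of 0.74 on the higher side that did not pass the test (adjusted p = 0.0802). Scd1 made up most of the summed level of the list, which was 20527 to 31477 CPM on HFD and 15358 to 25351 CPM on Chow. The number of lipogenic genes called was 4 without HFD mouse 10, Chow mouse 1 or Chow mouse 2 and 9 with the muscle level as a covariate, of which 7 were lower and 2 higher. DESeq2 called 7 lower and 1 higher and voom 5 lower and 1 higher, and Acly, Fasn, Me1 and Elovl6 passed in all 22 alternatives tried.

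The upstream sequences of 3 genes of the citrate to palmitate route that fell together are shown, since promoters of lipogenic genes are known for CCAAT boxes and E-boxes near their start. RefSeq promoter entries (GRCm38.p6) were matched for 17 of the 21 lipogenic genes tested, and the 250 bases before the start are printed 5′ to 3′ on the gene's strand, with the CCAAT box (CCAAT, or ATTGG on the other strand) and the E-box (CACGTG) in capitals. Acly is shown at chr11:100528001-100528250 (minus strand), Fasn at chr11:120824548-120824797 (minus strand) and Slc25a1 at chr16:17928220-17928469 (minus strand). All 3 windows lie just before the first exon and hold no annotated exon base.
Acly: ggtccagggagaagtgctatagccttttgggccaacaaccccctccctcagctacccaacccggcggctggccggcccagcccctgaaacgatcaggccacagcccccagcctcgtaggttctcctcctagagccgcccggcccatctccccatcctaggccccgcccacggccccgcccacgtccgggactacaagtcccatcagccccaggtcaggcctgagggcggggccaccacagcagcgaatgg
Fasn: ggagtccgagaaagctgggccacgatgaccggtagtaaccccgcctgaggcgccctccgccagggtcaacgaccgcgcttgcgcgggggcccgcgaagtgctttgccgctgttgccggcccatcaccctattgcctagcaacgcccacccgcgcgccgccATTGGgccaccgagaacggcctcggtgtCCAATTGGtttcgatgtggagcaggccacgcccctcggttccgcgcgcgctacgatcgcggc
Slc25a1: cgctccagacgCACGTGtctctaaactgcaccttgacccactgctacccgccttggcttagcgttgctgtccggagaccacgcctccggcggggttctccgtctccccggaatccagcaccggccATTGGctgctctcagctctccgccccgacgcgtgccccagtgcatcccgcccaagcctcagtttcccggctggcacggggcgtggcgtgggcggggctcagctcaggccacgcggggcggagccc
The Acly window held none of the motifs searched, the Fasn window held 3 CCAAT boxes, 2 of which overlap each other, and the Slc25a1 window held 1 E-box and 1 CCAAT box. A gene can have more than 1 promoter entry. Over the 250 bases before each start, searched on both strands, a CCAAT box stood in 4 of the 8 promoters of called lipogenic genes, in 59.1% of the 22 promoters of the list members tested and in 33.8% of all 32851 promoters. An E-box stood in 12.5%, 13.6% and 6.02% of these. The sterol element TCACNCCAC was found in 0 of the 8 promoters, in 4.55% of the list and in 1.05% of all, and the nuclear receptor elements DR1 and DR4 in 0 of the 22. A match is only a run of letters in this window, and its absence says nothing about a factor.

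Cholesterol genes were mostly on the lower side too, with fewer calls. Of 21 members tested 16 had a log2 value below 0 (median -0.21), 1 rose and 2 fell, against 1.9% and 2.04% of all genes, and with DESeq2 1 rose and 4 fell. Fdft1, the squalene synthase, had 98.2, 115, 59.8 and 72.0 on HFD and 217, 205, 183 and 161 on Chow (log2 fold change -1.15, SE 0.18, adjusted p = 0.00349), with separate ranges. Hmgcs1, which makes HMG-CoA for the same pathway, went the other way with 1049.7, 962, 1243 and 1125 on HFD and 573, 698, 830.3 and 645 on Chow (log2 fold change 0.67, SE 0.13, adjusted p = 0.0141). Fdft1 and Hmgcs1 passed in every alternative.

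Several genes of the brown adipocyte programme were higher on HFD, though Ucp1 itself did not pass the test. Of the 24 thermogenesis genes tested 5 rose and 1 fell, against 1.9% and 2.04% of all genes (median 0.16). Otop1, a proton channel gene enriched in brown fat, had 1133, 897, 1346 and 1309 on HFD and 587, 561, 672 and 635 on Chow (log2 fold change 0.93, SE 0.12, adjusted p = 0.00135). Adrb3, the β3-adrenergic receptor through which noradrenaline drives thermogenesis in rodents, had 1277, 1498, 1278 and 1963 on HFD and 516, 572, 862 and 629 on Chow (log2 fold change 1.22, SE 0.21, adjusted p = 0.00689), and its mean on HFD was 2.33 times that on Chow. In both genes the lowest HFD mouse was above the highest Chow mouse. Prdm16, a transcriptional regulator of brown fat identity, had 151, 181, 240.2 and 199 on HFD and 121, 75.3, 130.2 and 69.4 on Chow (log2 fold change 0.96, SE 0.20, adjusted p = 0.0177). Cox8b, the cytochrome oxidase subunit typical of brown fat and heart, had 8767, 14536, 12518 and 14916 and 7779, 5595, 8695 and 7465 (log2 fold change 0.78, SE 0.16, adjusted p = 0.0185). HFD mouse 7 was close to the highest Chow mouse for Cox8b. The remaining calls, named after their values were seen, were Cox7a1, another oxidase subunit, at 0.62 (adjusted p = 0.0407) and Ppara, the fatty acid sensing receptor PPARα, which fell with a log2 fold change of -0.52 (adjusted p = 0.0408). Without HFD mouse 7, 9, 10 or 11 or Chow mouse 2 or 4, 0 thermogenesis genes were called lower, so Ppara lost its call. The same held with only the 8 CTRL mice, with the muscle covariate, or without BATKO mouse 5, 6 or 12.

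Ucp1 had 16408, 23924, 26939 and 16570.5 normalized counts on HFD and 7409, 10138, 18755 and 15596 on Chow (log2 fold change 0.69, SE 0.26, adjusted p = 0.153). Chow mouse 3 was above HFD mice 7 and 11, so the groups overlapped, and Ucp1 passed in 1 of the 22 alternatives, with no filter on the mean count. The means were 20960.4 ± 5308 on HFD and 12974 ± 5141 on Chow (SD, n = 4 each). Dio2, the deiodinase that activates thyroid hormone in brown fat, was spread within each group, with 898, 1253, 2944 and 439 on HFD and 258, 1421, 1750.2 and 2076 on Chow (log2 fold change 0.01, SE 0.61, adjusted p = 0.994). In whole tissue, here as for every group of genes, more cells of a type and more RNA per cell cannot be told apart. The summed level of the 10 brown adipocyte markers, which share genes with the thermogenesis list, was 3970 to 6280 CPM on HFD and 2631 to 4596 CPM on Chow, and 4 of the 10 were called higher, against 1.9% of all genes. This count was 1 without HFD mouse 11 or Chow mouse 2 and 2 without Chow mouse 4. The count of called thermogenesis genes was 2 without HFD mouse 11, Chow mouse 2 or Chow mouse 4 and 3 without HFD mouse 10, and it was 10 with no filter on the mean count, 8 higher and 2 lower, whereas Otop1 and Adrb3 passed in all 22 alternatives.

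**Figure D2:**
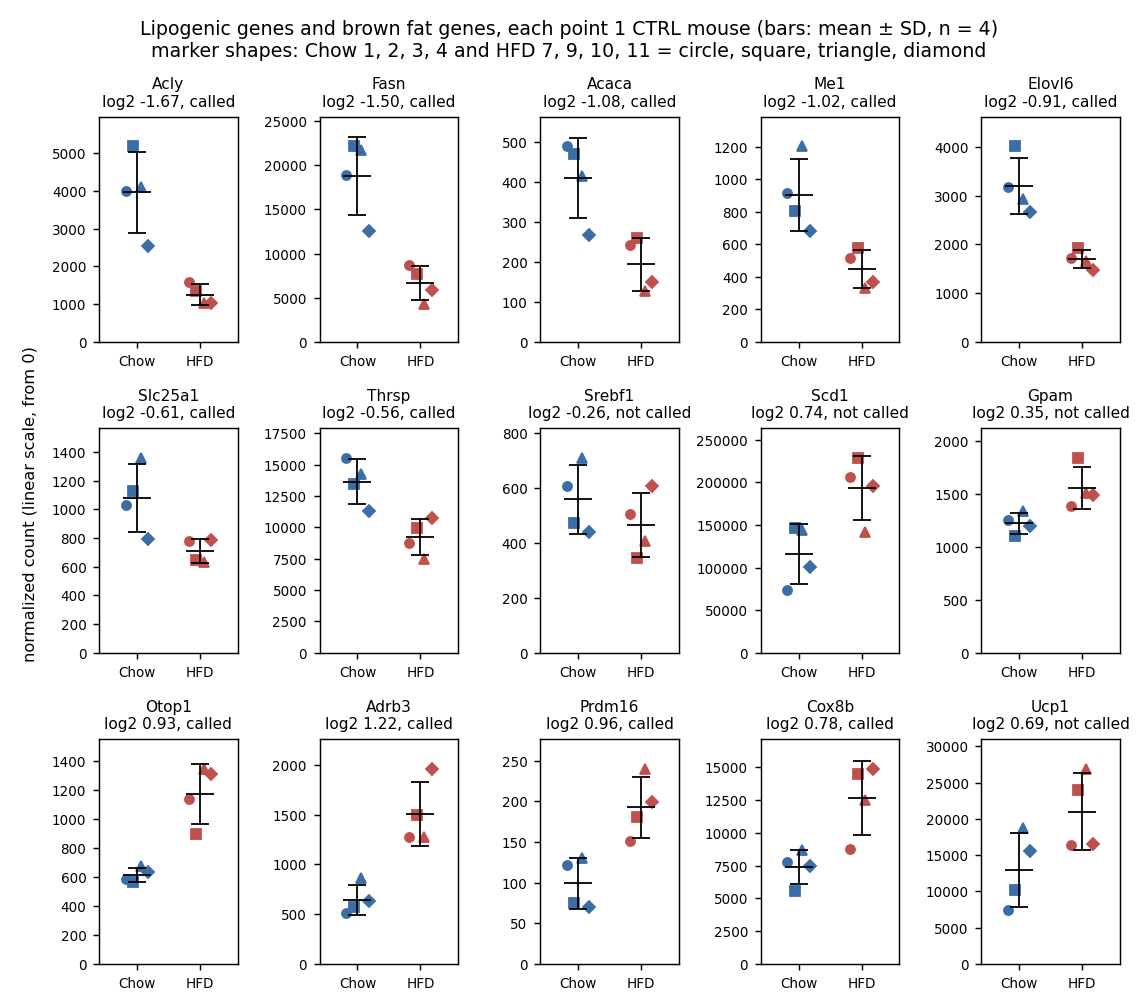
Normalized counts (y axis, linear, each panel from 0) of 10 lipogenic and 5 brown fat genes in the 4 Chow (blue) and 4 HFD (red) CTRL mice; horizontal bars are the mean and whiskers the SD. The 7 called lipogenic genes have every HFD mouse below every Chow mouse, Srebf1 and Scd1 overlap, and Otop1, Adrb3, Prdm16 and Cox8b have every HFD mouse above every Chow mouse while Ucp1 overlaps.

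Some genes that burn or handle fatty acids rose by small amounts. Of 22 fatty acid oxidation genes tested 21 had a log2 value above 0, with a median of 0.22, and 2 were called higher, where 1.9% of all genes were. Etfdh, which passes electrons from β-oxidation to ubiquinone, had 3324, 3629.6, 3581 and 3552 on HFD and 2778, 2725, 2816 and 2676 on Chow (log2 fold change 0.36, SE 0.08, adjusted p = 0.0247). Acsl1, which activates long-chain fatty acids, had 13898, 15602, 17563 and 18698 and 10285, 11037, 12746 and 12011 (log2 fold change 0.51, SE 0.12, adjusted p = 0.0307). Both were separated between the diets by small steps, and the number called was 0 without HFD mouse 10, HFD mouse 11, Chow mouse 1, Chow mouse 2 or Chow mouse 4, 1 without HFD mouse 9 and 4 without Chow mouse 3, with DESeq2 or with the muscle covariate. Of 19 PPAR target genes 2 rose (median 0.39), against the same background of 1.9%. Mgll, the monoglyceride lipase, had 2351, 2641, 2887 and 3334 on HFD and 1593, 1513, 2112 and 1776 on Chow (log2 fold change 0.68, SE 0.14, adjusted p = 0.0208). Fabp3, a fatty acid binding protein of oxidative tissue, had 263, 477, 237 and 362 and 158, 163, 164 and 189 (log2 fold change 0.99, SE 0.21, adjusted p = 0.0216), with HFD mice 9 and 11 the highest. The PPAR count was 0 without HFD mouse 11 or Chow mouse 2, 1 without Chow mouse 4, 4 without Chow mouse 3 or with DESeq2, 5 with the muscle covariate and 6 with no filter on the mean count. Mgll was also the 1 call among 20 triglyceride synthesis and lipolysis genes (median 0.14), against 1.9% of all genes called higher, a count that was 0 without HFD mouse 11, Chow mouse 1, Chow mouse 2 or Chow mouse 4, 3 with DESeq2 and 4 without Chow mouse 3. Fabp3 was the 1 gene called higher among 18 genes of fatty acid uptake, in which 1 other was called lower, against 1.9% and 2.04% of all genes (median 0.06). The uptake count was 1, with 0 higher, without HFD mouse 11 or Chow mouse 2, 3 without Chow mouse 1 or Chow mouse 3 and 4 with no filter on the mean count.

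Few carbohydrate genes were called, and their counts stand beside 1.9% of all genes called higher and 2.04% called lower. Of 19 genes of glucose uptake and glycolysis 1 rose and 1 fell (median -0.10). Slc16a1, the monocarboxylate carrier MCT1 for lactate, pyruvate and ketone bodies, had 2614, 2603, 3145 and 2455 on HFD and 1453, 1752, 1759 and 1503 on Chow (log2 fold change 0.74, SE 0.11, adjusted p = 0.003), and it passed in all 22 alternatives. Slc2a4, the insulin-regulated glucose carrier GLUT4, had 659, 750.1, 634 and 730.3 and 1022, 813, 1097 and 908 (log2 fold change -0.47, SE 0.12, adjusted p = 0.0443). Its ranges were close, and it lost the call in 13 of the 22 alternatives. Among 23 genes of pyruvate entry and the TCA cycle Pdk1, a kinase that inhibits pyruvate dehydrogenase, fell with a log2 fold change of -0.87 (adjusted p = 0.0257) and Idh3a, a subunit of isocitrate dehydrogenase, rose by 0.36 (adjusted p = 0.0462). Idh3a lost the call in 18 and Pdk1 in 5 of the 22 alternatives. The count of this list was 0 without HFD mouse 11, Chow mouse 1 or Chow mouse 2 and with only the 8 CTRL mice, 1 without HFD mouse 10 or Chow mouse 4, and 6 with DESeq2, 3 higher and 3 lower. Of 22 nuclear respiratory chain genes 0 were called in edgeR's test (median 0.15), 2 had an unadjusted p under 0.05, against 21.7% of all genes, and the smallest p belonged to Ndufb8 of complex I at 0.43 (adjusted p = 0.0769) and Sdhd of complex II at 0.19 (adjusted p = 0.226). Ndufb8 passed with DESeq2 (adjusted p = 0.0267), without HFD mouse 7 (adjusted p = 0.0345) and with no filter on the mean count (adjusted p = 0.0334).

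Glycogen genes fell in part. This list of 22 genes was put together after values of these mice were seen, so its count is no independent evidence: 4 were lower and 0 higher, against 2.04% and 1.9% of all genes (median -0.18). Pygl, a glycogen phosphorylase, had 535, 555, 315 and 345 on HFD and 942, 962, 905 and 628 on Chow (log2 fold change -0.97, SE 0.18, adjusted p = 0.0118). Gbe1, the branching enzyme, had 1594, 1431, 1184 and 1212 and 2081, 2175, 1942 and 1812 (log2 fold change -0.56, SE 0.12, adjusted p = 0.0254). Epm2a, the glycogen phosphatase laforin, fell, with a log2 fold change of -0.68 (adjusted p = 0.0254). Pygl, Gbe1 and Epm2a had separate ranges, and they take part in both the making and the breakdown of glycogen. The count was 1 without HFD mouse 10, HFD mouse 11, Chow mouse 1 or Chow mouse 2, and 7 with no filter on the mean count.

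Some genes of amino acid use and insulin signalling were lower on HFD. Of 19 genes of branched-chain amino acid breakdown 3 fell and 1 rose, against 2.04% and 1.9% of all genes (median -0.04). Bcat2, the mitochondrial transaminase that starts this breakdown, had 214, 242, 264 and 296 on HFD and 406, 328, 337 and 381 on Chow (log2 fold change -0.51, SE 0.12, adjusted p = 0.0256), and Ppm1k, the phosphatase that activates the branched-chain ketoacid dehydrogenase, had 108, 106, 114 and 125 and 191, 159, 148 and 173 (log2 fold change -0.57, SE 0.12, adjusted p = 0.0201). Aldh6a1, which acts late in valine breakdown, had a log2 fold change of -0.69 (adjusted p = 0.033). Bcat1, the cytosolic transaminase, rose from a low level, with 13.1, 22.6, 35.7 and 17.7 on HFD and 7.28, 11.0, 8.31 and 5.41 on Chow (log2 fold change 1.48, SE 0.34, adjusted p = 0.0284). The count of the list was 0 without Chow mouse 4, 1 without HFD mouse 9 or Chow mouse 1 and 2 without HFD mouse 10 or Chow mouse 2. Among 22 insulin signalling genes 2 fell, against 2.04% of all genes (median -0.04). Irs2, the insulin receptor substrate 2, had 1076, 948, 1605 and 748 on HFD and 2196, 4333, 2960.1 and 4243 on Chow (log2 fold change -1.65, SE 0.43, adjusted p = 0.0445), with separate ranges. Pik3cb, the catalytic p110β subunit of PI3-kinase, had 79.7, 81.9, 80.1 and 87.6 and 113, 113, 115 and 115 (log2 fold change -0.47, SE 0.11, adjusted p = 0.0257). Irs2 lost the call in 9 and Pik3cb in 5 of the 22 alternatives, and the insulin count was 0 without HFD mouse 10, Chow mouse 2 or Chow mouse 4, 1 without HFD mouse 7, 9 or 11 and 4 without Chow mouse 3.

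Several of the largest decreases were in genes that cells switch on within minutes of a stimulus. The list of 36 immediate early genes was also made after values were seen and gives no independent support: of 33 tested, 16 were lower and 0 higher, against 2.04% and 1.9% of all genes, with a median of -0.98. Egr3, a zinc finger transcription factor, had 7.64, 28.02, 11.6 and 8.87 on HFD and 116, 239.8, 88.7 and 111 on Chow (log2 fold change -3.29, SE 0.47, adjusted p = 0.0021). Arc, a synaptic protein gene known as an activity marker, had 27.3, 36.6, 21.2 and 12.2 and 159, 209, 159 and 220.0 (log2 fold change -2.93, SE 0.29, adjusted p = 0.000274). Its mean on Chow was 7.64 times that on HFD, and Egr3 and Arc were separated in all 8 mice. Separate ranges were a condition of naming Egr3, Arc, Atf3 and Nr4a1 among the largest decreases. Atf3, a stress-induced transcription factor, had 84.0, 76.5, 121 and 49.9 on HFD and 282, 582, 453 and 499 on Chow (log2 fold change -2.45, SE 0.29, adjusted p = 0.000861). Nr4a1, an orphan nuclear receptor that cAMP induces, had 534, 537, 615 and 335 and 1427, 3172, 2084 and 2282 (log2 fold change -2.15, SE 0.46, adjusted p = 0.0211). Chow mouse 2 was the highest for Egr3, Atf3 and Nr4a1.

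Other early genes fell too. Ccn1, a matrix-bound growth regulator, had 300.1, 539.9, 406 and 468 on HFD and 1734, 2092, 1296 and 1557 on Chow (log2 fold change -1.96, SE 0.27, adjusted p = 0.0016). Sik1, a salt-inducible kinase, had 154, 183, 406 and 279 and 698, 1245, 961 and 1066 (log2 fold change -1.95, SE 0.36, adjusted p = 0.0105), and Klf6, a Krüppel-like factor, had 713, 689.7, 726 and 598 and 1365, 1976, 1118 and 1555 (log2 fold change -1.14, SE 0.14, adjusted p = 0.00122). None of these ranges overlapped, which was a condition of naming Ccn1 and Sik1 among the largest decreases. The group was not uniform, since Fos, named after its values were seen, had 123, 805, 144 and 97.5 on HFD and 176, 709.5, 187 and 325 on Chow, with HFD mouse 9 the highest of all 8 (adjusted p = 0.847). The summed level of the 36 genes was 985, 1775, 1259 and 975 CPM on HFD and 2481, 3158, 2688 and 2728 CPM on Chow. The sums did not overlap. The count of called members ran from 10 without Chow mouse 2 to 20 without HFD mouse 9 and was 16 with the muscle covariate, and all of Egr3, Arc, Atf3, Ccn1, Sik1 and Klf6 passed in each of the 22 alternatives.

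A few stress and clock genes fell as well. Of 22 genes of the unfolded protein and stress response 2 fell, against 2.04% of all genes (median -0.02): Atf3, given above, and Ppp1r15a, the phosphatase subunit GADD34, with 103, 111, 127 and 104 on HFD and 163, 255, 246 and 252 on Chow (log2 fold change -1.04, SE 0.15, adjusted p = 0.00236). Of 18 clock genes 2 fell and 0 rose in edgeR's test, against 2.04% and 1.9% of all genes (median -0.24). DESeq2 called 4 lower and 2 higher and voom 2 lower and 2 higher, and the edgeR count was 1 without HFD mouse 11 and 4, with 3 lower and 1 higher, without Chow mouse 3. Per1, a clock repressor that is also induced acutely, had 185, 137, 108 and 101 on HFD and 255, 335, 402 and 440.0 on Chow (log2 fold change -1.43, SE 0.20, adjusted p = 0.00215). Per1 was separated between the diets. The hour at which tissue was taken is not given in the sources used here.

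Extracellular matrix genes had the most calls on the higher side among the 22 lists plotted. Of 22 tested 10 rose and 0 fell, against 1.9% and 2.04% of all genes, with a median of 0.59, and 12 had every HFD mouse above every Chow mouse, against 5.16% of all genes. Col6a2, a chain of microfibrillar collagen VI, had 1079, 1100.3, 1539 and 1072 on HFD and 834, 723, 698 and 658 on Chow (log2 fold change 0.72, SE 0.13, adjusted p = 0.00849). Col1a1, a chain of fibrillar collagen I, had 983, 1004, 1643 and 1078 and 805, 586, 499 and 597 (log2 fold change 0.92, SE 0.18, adjusted p = 0.0142). HFD mouse 10 was far above the other HFD mice in both. Col6a1 and Col6a3, the other main chains of collagen VI, rose by 0.66 and 0.78 on the log2 scale (adjusted p = 0.0234 and 0.0237). The call count rested on single mice: 4 genes passed without HFD mouse 10, 1 without Chow mouse 2, 2 without Chow mouse 4, 6 without Chow mouse 3 and 5 when only the 8 CTRL mice were fitted. Col6a2 passed in all 22 alternatives.

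Markers of other cells were also higher on HFD in part. The 12 macrophage and monocyte markers together made 169.6, 164, 371 and 155 CPM on HFD and 132, 115, 115 and 111 CPM on Chow, with HFD mouse 10 far above the rest. All 12 had a log2 value above 0 (median 0.75), and the 2 that were called higher, against 1.9% of all genes, named after their values were seen, were C1qb and C1qc, subunits of complement C1q, at 0.79 and 0.68 (adjusted p = 0.0259 and 0.0312). The count was 0 without HFD mouse 10, Chow mouse 2 or Chow mouse 4, 1 without HFD mouse 11 or Chow mouse 3, 4 with DESeq2, 5 with the muscle covariate and 9 with no filter on the mean count. The 10 fibroblast and preadipocyte markers summed to 1061 to 1405 CPM on HFD and 666 to 972 CPM on Chow, but 4 of them (Col1a1, Col3a1, Dcn and Lum) are also on the matrix list, and 3 of the 10 had a log2 value below 0, the lowest -1.08. Of these 4, Col1a1 was called higher, and of the 6 markers that are not shared 1 was called higher, Dpt, the matrix protein dermatopontin, named after its values were seen (log2 fold change 0.85, adjusted p = 0.00956). The median was 0.40 for the 4 and for the 6. Over all 10 the count was 1 without Chow mouse 2, 3 without HFD mouse 9 or Chow mouse 1, 4 with DESeq2 and 5 with no filter on the mean count, beside the 1.9% of all genes. Each marker of both lists had counts in the CTRL mice. The part of these cells in the matrix values was not tested.

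Cell division and interferon genes mostly had values above 0, and the number called depended on the tool and the filter. Of 15 cell cycle genes tested 13 had values above 0 (median 1.00), where 6644 of all 12916 genes had. The 1 that was called higher, against 1.9% of all genes, was Mcm7, a subunit of the replicative helicase, with 31.6, 34.5, 29.9 and 23.3 on HFD and 20.0, 12.0, 14.8 and 12.6 on Chow (log2 fold change 1.00, SE 0.26, adjusted p = 0.0489). It lost the call in 13 of the 21 alternatives that tested it. The cell cycle count was 8 with DESeq2, 11 with no filter on the mean count, 3 without Chow mouse 1 and 2 without HFD mouse 9, all higher, and 0 when any other CTRL mouse was left out. The summed cell cycle level was 55.3 to 160 CPM on HFD, highest in HFD mouse 10, and 33.8 to 61.5 CPM on Chow, so the sums overlapped. All 18 interferon-stimulated genes tested had values above 0 (median 0.60) and 2 were called higher, against the same 1.9%. Ifi27, an interferon-induced protein of mitochondria and the nuclear envelope, had 3371, 4140.4, 3037 and 3377 on HFD and 2139.5, 1921, 2425 and 2251 on Chow (log2 fold change 0.67, SE 0.13, adjusted p = 0.0115). Zbp1, a sensor of Z-form nucleic acids, had 42.6, 92.7, 43.4 and 45.4 and 16.4, 9.03, 12.0 and 25.2 (log2 fold change 1.82, SE 0.43, adjusted p = 0.0318), with HFD mouse 9 the highest. The interferon count was 1 without HFD mouse 9, HFD mouse 11, Chow mouse 1, Chow mouse 2 or Chow mouse 3, 4 without BATKO mouse 12 on HFD, which enters the estimate of the spread, 5 with DESeq2 and 7 with no filter on the mean count.

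**Figure D3:**
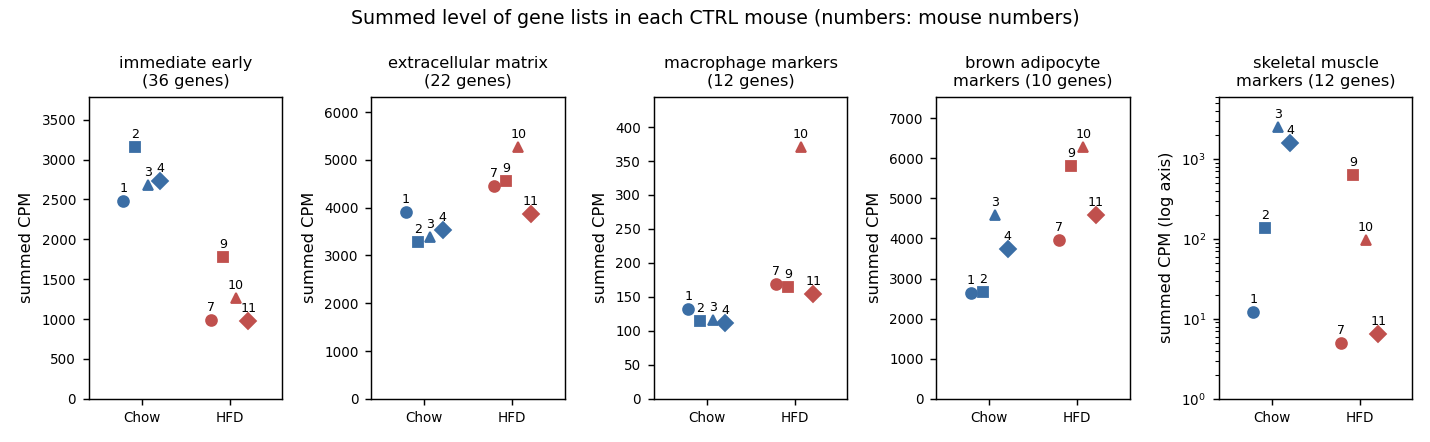
Summed CPM (y axis) of 5 gene lists in each of the 4 Chow (blue) and 4 HFD (red) CTRL mice, labelled by mouse number; the skeletal muscle panel has a log axis and the others start at 0. The immediate early sums are separate between the diets, HFD mouse 10 stands above the rest for macrophage markers (371 CPM), and muscle markers range from 5.04 CPM in HFD mouse 7 to 2520 CPM in Chow mouse 3.

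Some of the strongest single changes lay outside these lists. Cyp2e1, a cytochrome P450 that oxidises ethanol, acetone and fatty acids, had 129.8, 65.7, 57.9 and 79.8 on HFD and 629, 767, 725 and 826 on Chow (log2 fold change -3.15, SE 0.38, adjusted p = 0.000945), and its mean on Chow was 8.86 times that on HFD. Tfrc, the transferrin receptor that imports iron, had 460.5, 254, 346 and 434 and 2013, 1361, 1211 and 1263 (log2 fold change -1.97, SE 0.24, adjusted p = 0.000945). Apold1, an endothelial early response gene, had 361, 304, 355 and 236 and 1249, 2028, 1100.0 and 1361 (log2 fold change -2.19, SE 0.20, adjusted p = 0.000109). In these 3 genes the highest HFD mouse was below the lowest Chow mouse, and all passed in each alternative. For them and for Plk3 below, separate ranges were a condition of being named, so the separation is no added evidence. Plk3, a stress-responsive Polo-like kinase, had 24.0, 33.4, 25.1 and 28.8 on HFD and 105, 178, 89.6 and 82.1 on Chow (log2 fold change -2.02, SE 0.31, adjusted p = 0.00376), with separate ranges, and also passed in each.

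Among the genes that rose most, Sox18, an endothelial transcription factor, had 670.0, 611, 669.5 and 758 on HFD and 210.1, 107, 248 and 205 on Chow (log2 fold change 1.81, SE 0.25, adjusted p = 0.0021). The 4 HFD mice were within a narrow range and all above the Chow mice. Separate ranges were a condition of being named among the largest increases, here and in the next paragraph. Sncg, which encodes γ-synuclein, known in fat cells and neurons, had 107, 91.6, 293 and 141 and 26.4, 27.1, 38.8 and 27.1 (log2 fold change 2.41, SE 0.41, adjusted p = 0.00693). Akr1cl, a gene of the aldo-keto reductase family, had 24.0, 233, 59.8 and 86.4 on HFD and 13.6, 7.02, 20.3 and 13.5 on Chow (log2 fold change 2.86, SE 0.58, adjusted p = 0.0168), with HFD mouse 9 far above the rest. Akr1cl lost the call in 2 alternatives, and its log2 fold change was 2.02 without HFD mouse 9. Col12a1, a fibril-associated collagen, had 294, 121, 494 and 432 and 106, 67.2, 112 and 117 (log2 fold change 1.74, SE 0.32, adjusted p = 0.011), and HFD mouse 9 was close to Chow. Hic1, a transcriptional repressor, had 112, 109.9, 259.5 and 136 on HFD and 48.2, 49.2, 63.7 and 60.4 on Chow (log2 fold change 1.48, SE 0.27, adjusted p = 0.00936). Trim67, of the tripartite motif family, had 386, 537, 256 and 349 and 119, 116, 175 and 154 (log2 fold change 1.43, SE 0.26, adjusted p = 0.0105). Sox18, Sncg, Col12a1, Hic1 and Trim67 passed in all 22 alternatives.

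The other 4 of the 10 largest increases varied more between the HFD mice or lost the call in some alternatives. Zbtb16, the zinc finger regulator PLZF, had 321, 390.1, 301 and 448 on HFD and 91.0, 86.3, 195 and 157 on Chow (log2 fold change 1.46, SE 0.30, adjusted p = 0.0177). Rgs2, a regulator of G protein signalling, had 1372, 3041, 1182 and 1145 and 515, 627, 808 and 474 (log2 fold change 1.47, SE 0.33, adjusted p = 0.0261). HFD mouse 9 carried the highest Rgs2 value. Loxl1, a lysyl oxidase that cross-links elastin, had 110.2, 143, 396 and 126 on HFD and 50.9, 77.3, 78.5 and 77.5 on Chow (log2 fold change 1.46, SE 0.35, adjusted p = 0.0318), a log2 fold change of 0.82 without HFD mouse 10. Ifi27l2a, an interferon-inducible gene, had 737, 1365, 1642 and 1871 and 470.3, 451, 581 and 577 (log2 fold change 1.43, SE 0.34, adjusted p = 0.031).

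Genes of the thyroid hormone axis were not called in edgeR's test, while 3 antioxidant genes were. Of the 17 thyroid genes 0 were called (median 0.06) and 2 had an unadjusted p under 0.05, against 21.7% of all genes. Thra, the gene of thyroid hormone receptor α, had 96.0, 189.7, 96.5 and 90.9 on HFD and 107, 91.3, 209.7 and 170.4 on Chow (log2 fold change -0.29, SE 0.27, adjusted p = 0.562), and Thrb, that of receptor β, had 273, 206, 266 and 279 and 297, 279, 234 and 307 (log2 fold change -0.13, SE 0.15, adjusted p = 0.665). The smallest p in the list belonged to the partner receptor gene Rxrg (log2 0.66, adjusted p = 0.0888), which DESeq2 called (adjusted p = 0.0426), as did edgeR with no filter on the mean count (adjusted p = 0.0106), where 2 members passed. Without Chow mouse 3 the thyroid count was 1. Of 20 antioxidant genes 1 rose and 2 fell, against 1.9% and 2.04% of all genes (median 0.05), and the count was 0 without HFD mouse 10, HFD mouse 11 or Chow mouse 2, 1 without Chow mouse 1, Chow mouse 3 or with voom and 6 with no filter on the mean count. Gpx1, a glutathione peroxidase, had 1928, 2644, 3381 and 3227 on HFD and 1502, 1706, 1849 and 1916 on Chow (log2 fold change 0.68, SE 0.15, adjusted p = 0.0257). Gsta3 and Gsta4, glutathione S-transferases whose family members are similar in sequence, fell, with log2 fold changes of -1.50 and -0.44 (adjusted p = 0.032 and 0.0476). Among 15 adipokines and secreted factors 1 was called higher, against 1.9% of all genes (median 0.24): Bmp8b, a BMP that brown fat secretes, with 24.0, 26.9, 63.7 and 24.4 on HFD and 12.7, 8.03, 16.6 and 10.8 on Chow (log2 fold change 1.52, SE 0.35, adjusted p = 0.026), highest in HFD mouse 10. This count was 0 without HFD mouse 10, Chow mouse 2 or Chow mouse 4, 2 without Chow mouse 3, 3 without HFD mouse 7, 4 with DESeq2, 2 higher and 2 lower, and 7 with no filter on the mean count, 4 higher and 3 lower. With only the 8 CTRL mice 0 were higher and 1 lower.

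**Figure D4:**
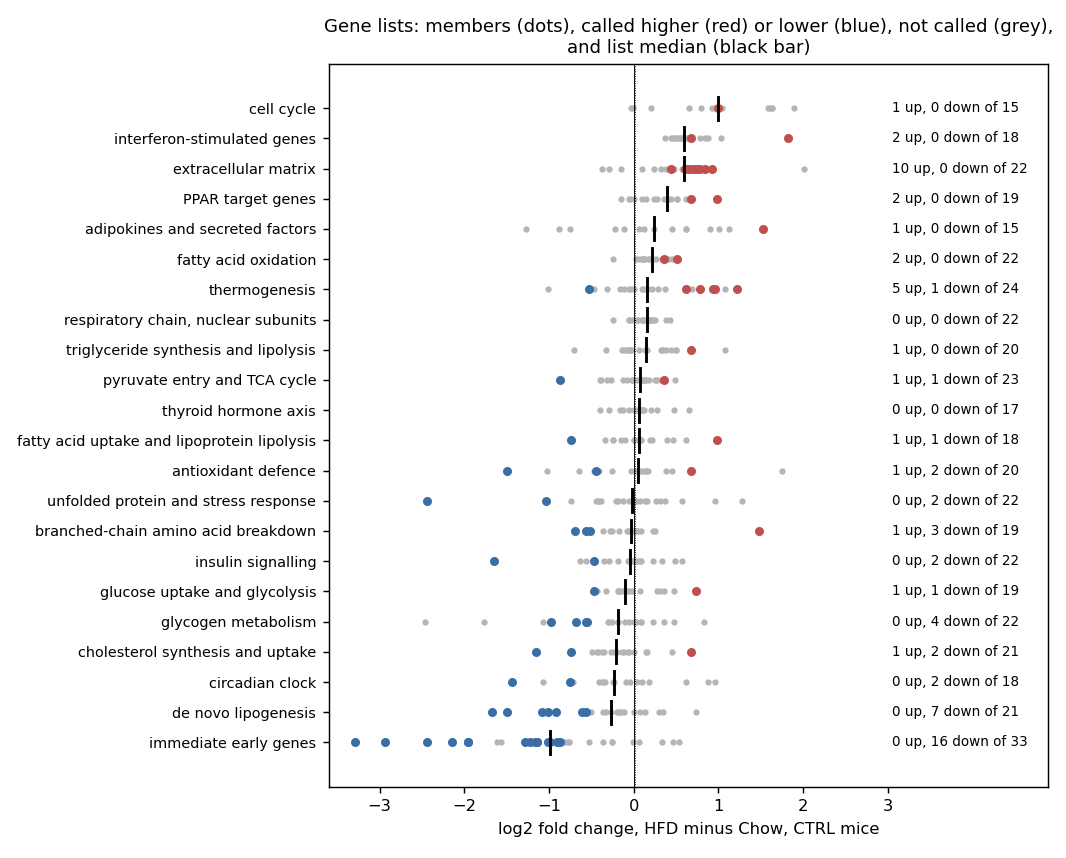
Log2 fold change (HFD minus Chow, x axis) of every tested member of 22 gene lists (rows), coloured by call, with the list median as a black bar and the counts called higher and lower at the right; the dotted line is the median of all genes (0.01). Immediate early genes (16 lower of 33), extracellular matrix (10 higher of 22) and de novo lipogenesis (7 lower of 21) hold the most calls.

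The BATKO mice gave a further, smaller set of both diets with no animal in common. In them 9 of 12916 genes were called (0.0697%), 4 higher and 5 lower, and all 9 were also called in CTRL mice. Tfrc changed by -1.92 in BATKO and -1.97 in CTRL mice on the log2 scale, Apold1 by -1.44 and -2.19, and Prdm16 by 1.61 and 0.96. Of the 245 genes called higher in CTRL mice 214 were above 0 in BATKO mice, with a median of 0.44, and of the 264 called lower 262 were below 0, with a median of -0.51. The median of all genes in BATKO mice was 0.03. No gene passed the test of a genotype difference in the diet response (0 called, 0%, by edgeR, DESeq2 and voom), although 739 genes had an unadjusted p under 0.05 in edgeR, 625 in DESeq2 and 841 in voom, and 216 were called by edgeR when no filter on the mean count was set. With 3 and 2 BATKO mice a difference of the size seen for single genes may not have been detectable. Acly, Fasn and Elovl6 had log2 values of -1.29, -1.43 and -0.60 in BATKO mice, beside -1.67, -1.50 and -0.91 in CTRL mice. The extracellular matrix list had a median of -0.13 in BATKO mice and 0.59 in CTRL mice, the macrophage list -0.55 and 0.75, the cell cycle list -0.11 and 1.00, and the immediate early list -0.35 and -0.98. The Chow levels were not alike in both genotypes. Summed macrophage markers made 219 and 275 CPM in the 2 BATKO Chow mice and 111 to 132 CPM in CTRL Chow mice. Summed matrix genes made 3998 and 4416 CPM in the former and 3279 to 3913 CPM in the latter. The part of these Chow levels in the medians was not tested. The genotype difference in the diet response had an unadjusted p under 0.05 in 739 of all 12916 genes by edgeR. Among them were 12 of the 22 matrix genes, 9 of 12 macrophage, 4 of 15 cell cycle and 12 of 33 immediate early genes. None of these passed adjustment.

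The diet response was also set beside the cold response of CTRL mice in another experiment of the series, 3 mice at 4 °C against 4 at 30 °C for 24 h, again with no animal in common. Cold changed 52.5% of the 13077 genes tested (27.8% higher and 24.7% lower at 4 °C), and the responses to diet and cold differed for 4285 genes (32.8%), 1958 of them more positive and 2327 more negative with diet. Of the genes called with diet, 294 were also called with cold in the same direction, 57 in the opposite direction, 153 were not called with cold and 5 were not tested there. The lipogenic genes responded to diet and cold in different ways. Cold raised 15 of the 21, and in 14 the diet response was more negative than the cold response. For Fasn the log2 value was -1.50 with diet and 1.63 with cold (difference -3.12, SE 0.48, adjusted p = 0.000203), and for Acly -1.67 and 1.67 (difference -3.33, SE 0.58, adjusted p = 0.000527). Pygl also fell with diet (-0.97) and rose with cold (1.64).

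Most thermogenic genes had a smaller response to diet than to cold. In 14 of 24 the diet response was more negative, beside 2327 of all 13077 genes. Among the 14 were Ucp1 (0.69 with diet and 4.41 with cold, difference -3.71, SE 0.64, adjusted p = 0.00048) and Otop1 (0.93 and 2.51, difference -1.58, SE 0.27, adjusted p = 0.000405). Adrb3 had like values, 1.22 and 1.12, and the difference did not pass the test (0.10, SE 0.44, adjusted p = 0.881). Of the 33 immediate early genes 20 fell with cold, against 24.7% of all genes, and 11 of these were among the 16 that fell with diet. The cold log2 value was -5.30 for Egr3 and, outside the list, -2.77 for Apold1. The difference between the responses passed in 11 of the 33, a share near the 32.8% of all genes. Of the 21 matrix genes tested in both experiments 15 fell with cold, against 24.7% of all genes. In 14 the diet response was more positive, beside 1958 of all 13077 genes.

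Among genes, predicted models aside, whose diet ranges were separate and whose mean was over 50 normalized counts, the most positive differences from cold were those of Prr32, Akr1cl, Snhg11, Sncg and Tmem45b, and the most negative those of Acsl5, Gmpr, Cars2, Hsd17b7 and Nnmt. Prr32 and Akr1cl had mean normalized counts of 0.357 and 0.714 at 4 °C, so their fitted cold values rest on counts at the floor. Snhg11, a long noncoding host gene of small nucleolar RNAs, had log2 values of -1.05 with diet and -5.54 with cold (difference 4.50, SE 0.52, adjusted p = 1.93e-05). Acsl5, an acyl-CoA synthetase, had -0.24 and 4.45 (difference -4.69, SE 0.24, adjusted p = 1.63e-08) and Gmpr, the guanosine monophosphate reductase, 0.68 and 5.07 (difference -4.39, SE 0.35, adjusted p = 9.34e-07). Acsl5 was not called with diet, and Gmpr was not called in edgeR's test but passed with DESeq2 (adjusted p = 0.0165), with the muscle covariate (adjusted p = 0.0258), without HFD mouse 11 (adjusted p = 0.0436) and with no filter on the mean count (adjusted p = 0.00126). Nnmt, nicotinamide N-methyltransferase, was called higher in both, at 1.18 and 4.60, and Bmp8b at 1.52 and 6.38 (difference -4.85, SE 0.52, adjusted p = 1.09e-05).

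**Figure D5:**
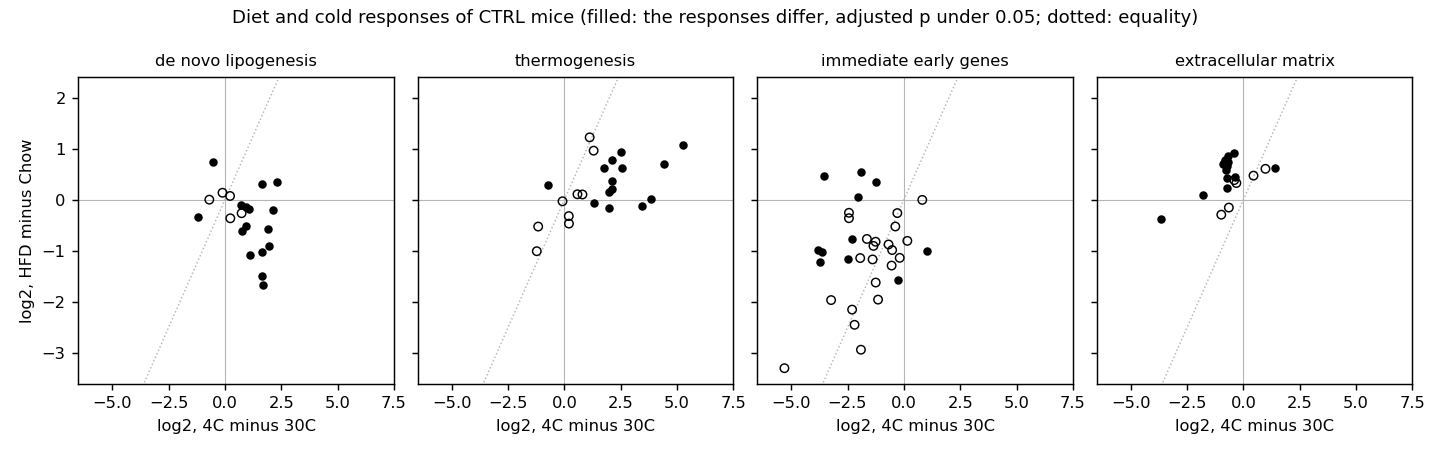
Log2 fold change with diet (HFD minus Chow, y axis) against that with cold (4C minus 30C, x axis) in CTRL mice for the members of 4 lists; filled points have a tested difference between the responses and the dotted line marks equality. Lipogenic genes lie mostly at positive cold and negative diet values, and most matrix genes at negative cold and positive diet values.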

How the data were processed

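Total RNA of BAT was extracted with Trizol, libraries were made with the Lexogen total RNA SENSE kit and run on a NextSeq 500. The deposited tables hold raw read counts per gene symbol, which the authors made by aligning reads to mm10 with Bowtie2 (version 2.3.2.2 in the submitters' processing notes, which also name DESeq2) and counting them per gene; the published methods, written for the hormone samples, give htseq-count and removal of low-quality alignments. The annotation and strand setting are not given in the sources used here. Of 55341 symbols, 55327 matched GENCODE vM21, and the 14 others held 0.0469% of the counts.

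Counts of all 13 mice of the diet experiment were normalized by TMM and fitted by group with edgeR 4.0.16 (R 4.3.3), genes with a mean normalized count above 10 were kept, and CTRL HFD was contrasted with CTRL Chow by the quasi-likelihood test (Benjamini-Hochberg, adjusted p under 0.05, no fold threshold). A prior count of 2 was set only for the log2 CPM behind the correlations and principal components. Normalized counts are counts divided by relative library size. The genotype difference was an interaction term in this fit, and diet was compared with cold in a joint fit of the 8 CTRL diet mice and 7 CTRL temperature mice on the raw counts of both tables (13077 genes), from which the cold values and the differences come. Scripts were tested on simulated data. Alternatives were DESeq2 1.42.0, voom with sample weights (limma 3.58.1), RLE scaling, other filters, no mitochondrial genes, the 8 CTRL mice alone and each mouse left out. Thinning to 7612059 counts and the muscle covariate were added after seeing the data. No within-group pair of libraries was a duplicate (chi-square per degree of freedom 7.19 to 23.5).

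Lists are described by counts and medians. Named genes were the 10 largest increases and decreases among called genes with a mean above 50 and separate ranges, up to 4 called members of each list by p (2 where none was called), up to 5 per direction for the cold difference, and Ucp1, Dio2, Thra and Thrb. Some genes that the rule names are not reported here. The members, lists and this rule were chosen with earlier results of these data known. The hormone time course table was not used here.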

Additional observations from a re-analysis of the deposited data

Results flagged for a closer look

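For 184 sets of 4 values (a gene or a summed list in the 4 mice on 1 diet), the distance of the highest or lowest mouse from its neighbour was taken as a share of the whole range, and in 15 sets this ratio was above Dixon's 95% critical value. Chance alone would give about 9.2 such sets. The values are normalized counts unless stated otherwise, and the reasons were not tested.

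HFD mouse 10 stood apart in 6 of these sets. Its value was high for Col6a2 (1539 beside 1072 to 1100.3, ratio 0.939), Col1a1 (1643 beside 983 to 1078, ratio 0.856), Col6a3 (2290.2 beside 1284 to 1405, ratio 0.880), Loxl1 (396 beside 110.2 to 143, ratio 0.884) and Bmp8b (63.7 beside 24.0 to 26.9, ratio 0.926). The summed macrophage and monocyte markers of this mouse were 371 CPM beside 155 to 169.6 CPM (ratio 0.931). All of these genes rose on HFD in the comparison of 4 with 4 mice.

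HFD mouse 9 was high for Rgs2 (3041 beside 1145 to 1372, ratio 0.880), Zbp1 (92.7 beside 42.6 to 45.4, ratio 0.942), Thra (189.7 beside 90.9 to 96.5, ratio 0.943) and the summed skeletal muscle markers (625 CPM beside 5.04 to 96.1 CPM, ratio 0.853). HFD mouse 7 was low for Sdhd (2499 beside 2842 to 2909, ratio 0.836).

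Among the Chow mice, mouse 3 was high for Sncg (38.8 beside 26.4 to 27.1, ratio 0.942) and Gsta3 (73.9 beside 32.5 to 37.1, ratio 0.887), and mouse 1 was low for Loxl1 (50.9 beside 77.3 to 78.5, ratio 0.955) and Ppp1r15a (163 beside 246 to 255, ratio 0.900).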

How the results depend on the processing

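The count of genes in the diet response in CTRL was 509. It was 872 with DESeq2, of which 508 were among the 509, 1280 with no filter on the mean count (490 shared) and 321 with only the 8 CTRL mice (302 shared). Leaving out 1 mouse at a time gave 166 (without Chow mouse 2) to 718 genes (without Chow mouse 3). With voom, RLE scaling, no mitochondrial genes, a mean count above 50, thinning or the muscle covariate the count was 474 to 701, and the causes of these changes were not tested. The genotype difference of the diet response was 0 genes with DESeq2, voom, RLE scaling, no mitochondrial genes or a mean count above 50. It was 216 genes with no filter on the mean count, and leaving out each mouse gave 0 to 0. The difference of the diet and cold responses in CTRL (4285 genes) ran from 3420 to 4557 when 1 mouse was left out.

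Of the 65 called named genes, 30 passed in every alternative and 35 lost the call in one or more, and of the 11 not called 4 passed in some. Dio2, whose log2 fold change was 0.01, turned to -0.35 with voom, -0.00287 with DESeq2, -0.00193 with RLE, -0.016 with no mitochondrial genes, -0.0129 with only the 8 CTRL mice and -0.00398 with thinned libraries, and ran from -0.68 to 0.28 when 1 mouse was left out, being -0.36 without Chow mouse 1 and -0.016 without BATKO mouse 14 or 15. Thra turned from -0.29 to 0.019 with the muscle covariate.

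The total count in CTRL differed by -1103690 reads (HFD minus Chow), by -1256790 to -928512 when 1 mouse was left out, with an exact permutation p of 0.0571 without HFD mouse 7 or 9 or Chow mouse 4. The mitochondrial share differed by -2.47 to -0.15 percentage points in the same way, never past 0.05. No paired analysis was possible because the mouse numbers of CTRL HFD and CTRL Chow do not recur in the other group. How small a difference could be detected in low genes at these totals was not tested.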

Other observations

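Markers of further cell types that the tissue can hold had few calls between the diets in CTRL mice. Of 10 endothelial markers 0 were called (median log2 fold change -0.10), with a summed level of 746 to 895 CPM on HFD and 832 to 966 CPM on Chow. Of 8 mural and smooth muscle markers 0 were called (599 to 778 CPM on HFD and 545 to 770 CPM on Chow). The 8 markers common to all adipocytes summed to 8057 to 9057 CPM on HFD and 7088 to 8957 CPM on Chow, with 1 called higher, against 1.9% of all genes. This count was 0 without HFD mouse 9, 10 or 11 or Chow mouse 1, 2 or 4, 1 lower and 0 higher without HFD mouse 7 or with only the 8 CTRL mice, and 2 lower and 1 higher with DESeq2. Of the 4 white adipocyte markers tested 0 were called. Of the 4 Schwann cell and nerve markers tested 1 was called higher, against the same 1.9% (137 to 185 CPM on HFD and 108 to 153 CPM on Chow). Erythroid markers ran from 516 to 1063 CPM on HFD and from 374 to 897 CPM on Chow, with 0 of 4 called. Lymphocytes and neutrophils were near the floor, since T and NK markers summed to 2.195 to 5.75 CPM on HFD and 3.10 to 4.39 CPM on Chow with none reaching the count filter, and 0 of 2 B cell and 0 of 2 neutrophil markers tested were called. Of 8 mammary or skin epithelium markers 5 had no count in the CTRL mice and none reached the filter. The endothelial, mural, white adipocyte, erythroid, B cell and neutrophil lists had 0 calls in edgeR's test and in every alternative, DESeq2 and voom included, and 2 endothelial and 1 B cell marker had an unadjusted p under 0.05, against 21.7% of all genes.

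On the first principal component of the 8 CTRL libraries (37.4% of the variance), Chow mice 2, 3 and 4 and HFD mouse 9 had positive scores and the other 4 mice negative ones. These 4 mice also had the highest summed muscle marker levels. On the second component (22.98%) Chow mice 1 and 2 stood at one end and HFD mice 9 and 10 at the other. Pairwise correlations of log2 CPM were 0.932 to 0.971 between the diets, 0.938 to 0.982 within Chow and 0.956 to 0.979 within HFD, computed across genes, which are not independent.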
